A study of Homo sapiens with 2 samples.

Results

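The proteasome subunit genes were examined in cap analysis of gene expression (CAGE) data of the human hepatoma line PLC/PRF/5. Members were the genes whose symbol was PSM, a letter from A to G and a number, or POMP, with pseudogenes left out. The rule found 46 gene symbols among 16424 listed genes, and the row with the highest mean was taken where a symbol had more than 1 row. The non-treated library came from cells given 0 µg/ml M2BPGi, and the M2BPGi-treated library from cells given 3 µg/ml M2BPGi, a glycan isomer of Mac-2-binding protein, for 6 h. There was 1 library of each, so the differences are not checked by replicates and no test of the treatment was possible.

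CAGE reads the capped 5′ end of RNAs, and each tag marks 1 transcript start. The deposited unit is the tag count scaled to library size (CPM), which does not grow with transcript length, so levels of different genes can be set side by side. The totals read back from the steps of the values were 24040209 tags in the non-treated and 24862941 tags in the M2BPGi-treated library, so that 1 tag was worth 0.0416 and 0.0402 CPM. Log2 ratios divide the M2BPGi-treated by the non-treated value after adding 1 CPM to both, and so understate changes of low genes. Intervals are 95% Clopper-Pearson intervals of the log2 tag ratio without that addition, and they cover counting error only. Where 2 CPM values are given for a gene, the non-treated library comes first, and the log2 ratio follows in parentheses.

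The proteasome is the large protease that degrades proteins marked with ubiquitin in the cytosol and nucleus. Its barrel-shaped core particle has outer rings of alpha subunits, which gate the entrance, and inner rings of beta subunits, some of which cut peptide bonds. A regulatory particle caps the core. Its base holds a ring of ATPases that unfolds the substrate, and its lid removes the ubiquitin chain. Other activators can take the place of the cap, and dedicated chaperones build the particles. The transcription factor NFE2L1 is known to raise the genes of most subunits together when proteasome activity is short.

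Most proteasome genes had somewhat higher values in M2BPGi-treated cells. A gene was taken as expressed when its mean CPM reached 1. Of 46 members, 45 were expressed, and 35 of these 45 had a log2 ratio above 0 (77.8%), against 42.9% of the 13724 expressed genes. Their median log2 ratio was 0.15, with quartiles of 0.04 and 0.24, while the median of all expressed genes was -0.05, with quartiles of -0.26 and 0.14. The members summed to 6943 CPM without and 7677 CPM with M2BPGi. In bulk RNA, a change in the makeup of the culture and a change in RNA per cell cannot be told apart. The differences were small, and the log2 ratios of the 45 members lay between -0.13 and 0.48.

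Values at least 25% higher in M2BPGi-treated cells were seen for 6 of 45 members, PSMF1, PSMD10, PSMA1, PSMD3, PSMB6 and PSMD8, where 9.04% of all expressed genes were this much higher. Values at least 20% lower, the same distance on the log2 scale, were seen for 0 of 45 members, where 18.4% of all expressed genes were this much lower. The interval of the tag ratio lay above equality for 29 members, against 22.8% of all genes, and below equality for 4 members, against 31.5% of all genes, many of them with fewer tags and so wider intervals. It spanned equality for the other 12. Scaling by the trimmed mean of M-values, which sets the bulk of genes equal, moved the shares of all genes to 12.2% higher and 14.4% lower and the members' counts to 9 higher and 0 lower. With that scaling 38 members lay above 0, and PSMA4, PSMC4 and PSMD11 turned from slightly below 0 to above it.

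**Figure D1:**
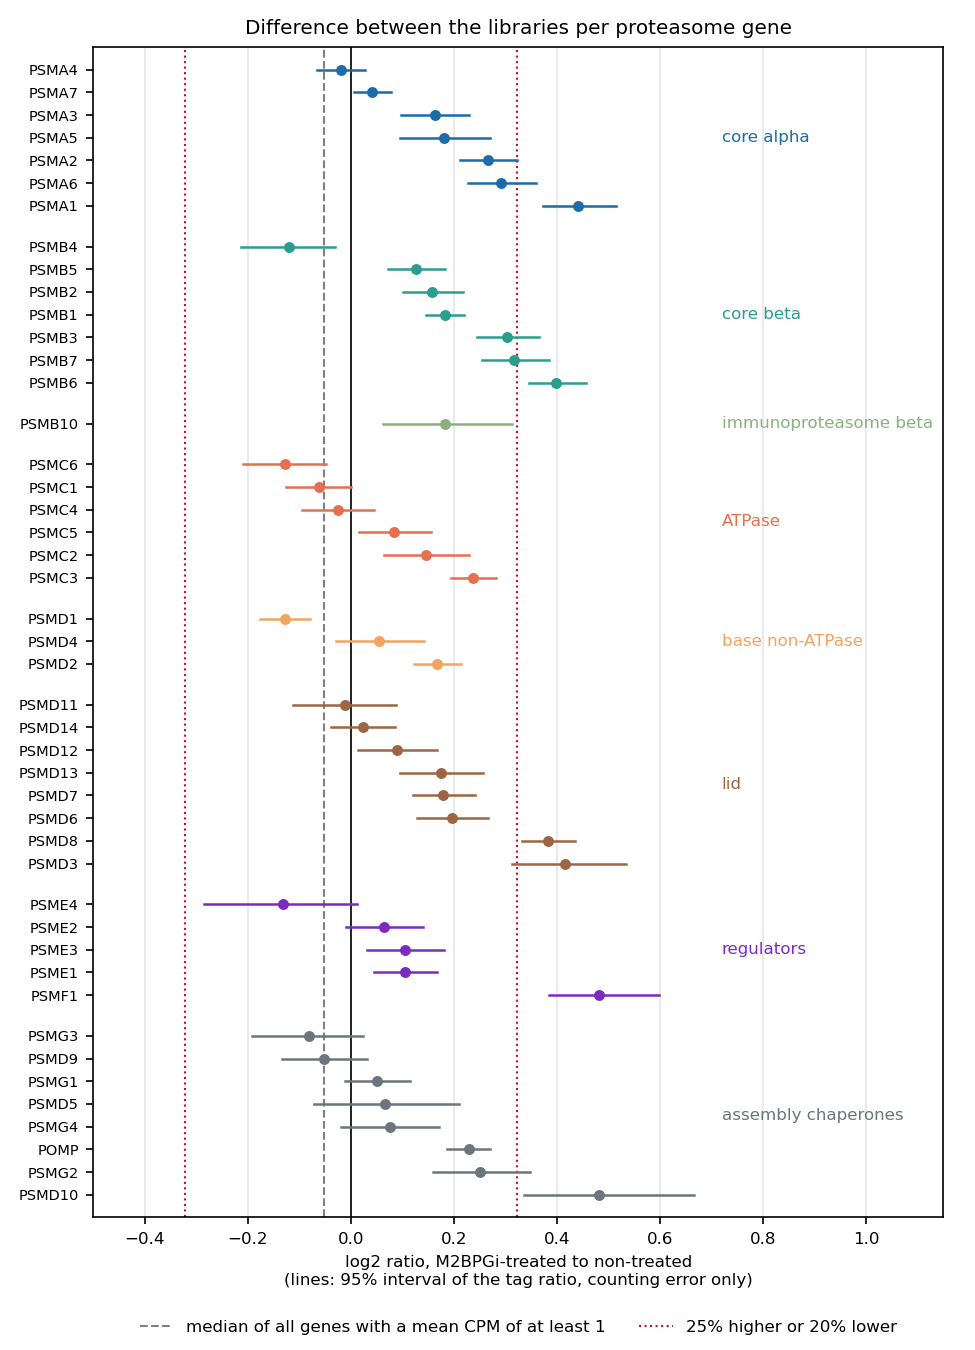
Log2 ratio of the treated to the non-treated library (horizontal axis) for the 45 expressed proteasome genes, grouped by role. Points are single library pairs, lines are 95% intervals of the tag ratio for counting error only, the dashed line is the median of all genes at -0.05, and 6 members lie beyond the dotted line of a 25% higher value.

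The alpha subunits of the core had log2 ratios above 0 in 6 of 7 genes, with a median of 0.18. PSMA1 had 115 CPM without and 156 CPM with M2BPGi, the widest difference of the alpha ring with a log2 ratio of 0.44 (interval 0.37 to 0.52). PSMA6 had 142 and 174 CPM (0.29), and PSMA2 had 196 and 236 CPM (0.27). These were the members of the ring with the highest log2 ratios. PSMA5 had 82.8 and 93.9 CPM (0.18), and PSMA3 had 145 and 163 CPM (0.16). PSMA7, the most abundant of all 46 members, had 511 and 526 CPM (0.04, interval 0.01 to 0.08). PSMA4 had 309 and 305 CPM, and its interval of -0.07 to 0.03 spanned equality, with a log2 ratio that turned from below to above 0 under the other scaling. Thus the 2 most abundant alpha genes differed least between the libraries.

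The beta subunits were higher in 6 of 7 genes as well, with a median of 0.18, and their summed level was 1422 CPM without and 1651 CPM with M2BPGi. PSMB5, PSMB6 and PSMB7 carry the chymotrypsin-like, caspase-like and trypsin-like active sites. PSMB6 had 189.6 CPM without and 250.3 CPM with M2BPGi, a log2 ratio of 0.40 (interval 0.35 to 0.46). PSMB7 had 143 and 178 CPM (0.32, interval 0.25 to 0.38), just short of a 25% higher value. PSMB5 had 208 and 227 CPM (0.13, interval 0.07 to 0.18). The 3 catalytic genes were therefore all higher in the M2BPGi-treated library, PSMB5 by less than PSMB6 and PSMB7, whose intervals do not reach that of PSMB5.

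The other beta subunits are structural. PSMB3 had 165 and 203 CPM (0.30), PSMB1 had 449.9 and 511 CPM (0.18), and PSMB2 had 185 and 206 CPM (0.16). PSMB1 was second in level to PSMA7 among the members. PSMB4 was the exception in the beta ring, with 82.5 CPM without and 75.8 CPM with M2BPGi (-0.12, interval -0.21 to -0.03). With the scaling by the trimmed mean of M-values its interval, -0.16 to 0.02, spanned equality. It also had the lowest level of the 14 constitutive core genes in both libraries.

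Interferon-inducible beta subunits can replace the constitutive catalytic ones and form the immunoproteasome. PSMB10, the counterpart of PSMB7, had 40.2 CPM without and 45.7 CPM with M2BPGi (0.18, interval 0.06 to 0.31). PSMB7 was 3.56 times as high as PSMB10 in non-treated and 3.9 times in M2BPGi-treated cells. PSMB8, the counterpart of PSMB5, had 0 tags in non-treated and 2 tags in M2BPGi-treated cells. A count of 0 allows up to 0.125 CPM in the non-treated library, and no difference was detectable for this gene at this depth. PSMB9, PSMB11 and PSMA8 were not analysed here.

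The ATPases of the base divided evenly, 3 of 6 above 0 and 3 below, with a median of 0.03, although PSMC4 turned above 0 with the scaling by the trimmed mean of M-values. PSMC3, the most abundant ATPase gene, had 317 and 374 CPM (0.24, interval 0.19 to 0.28). PSMC2 had 93.2 and 103 CPM (0.15), and PSMC5 had 130.2 and 138 CPM (0.08). The remaining ATPases had lower values in M2BPGi-treated cells. PSMC6 had 108 and 98.8 CPM (-0.13, interval -0.21 to -0.05), and PSMC1 had 172 and 164 CPM (-0.06, with an upper bound of -0.0002). The intervals of both spanned equality with the other scaling, -0.16 to 0.0022 for PSMC6 and -0.07 to 0.05 for PSMC1. PSMC4 had 137 and 135 CPM, and its interval of -0.09 to 0.04 spanned equality. The ATPases occur in the ring in equal numbers, and their tags were not equally distributed, with PSMC3 3.4 times the lowest ATPase gene in non-treated and 3.78 times in M2BPGi-treated cells.

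In the base, PSMD1 and PSMD2 are the large scaffold subunits and PSMD4 is a receptor for ubiquitin chains. The scaffold genes had near-equal levels in non-treated cells, 296 CPM for PSMD1 and 289 CPM for PSMD2. They differed in direction, with PSMD1 at 271 CPM (-0.13, interval -0.18 to -0.08, and -0.13 to -0.03 with the other scaling) and PSMD2 at 325 CPM (0.17, interval 0.12 to 0.21) in M2BPGi-treated cells. PSMD4 had 89.2 and 92.7 CPM, and its interval of -0.03 to 0.14 spanned equality.

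The lid genes were higher in 7 of 8 cases, with a median of 0.18. PSMD3 had 47.3 CPM without and 63.4 CPM with M2BPGi (0.42, interval 0.31 to 0.53), from the lowest level in the regulatory particle in both libraries. PSMD8 had 216 and 281 CPM (0.38, interval 0.33 to 0.44). A middle group of structural lid genes followed. PSMD6 had 129 and 147 CPM (0.20), PSMD7 had 167 and 189 CPM (0.18), and PSMD13 had 96.7 and 109 CPM (0.17). PSMD12 was lower in this order, with 108 and 115 CPM (0.09). PSMD14 encodes the metalloprotease that cuts the ubiquitin chain off the substrate, and it pairs with PSMD7 in the lid. PSMD14 had 168 and 171 CPM (0.02), and PSMD11 had 66.8 and 66.2 CPM (-0.01). The intervals of these 2 genes spanned equality, and PSMD11 lay above 0 with the other scaling.

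**Figure D2:**
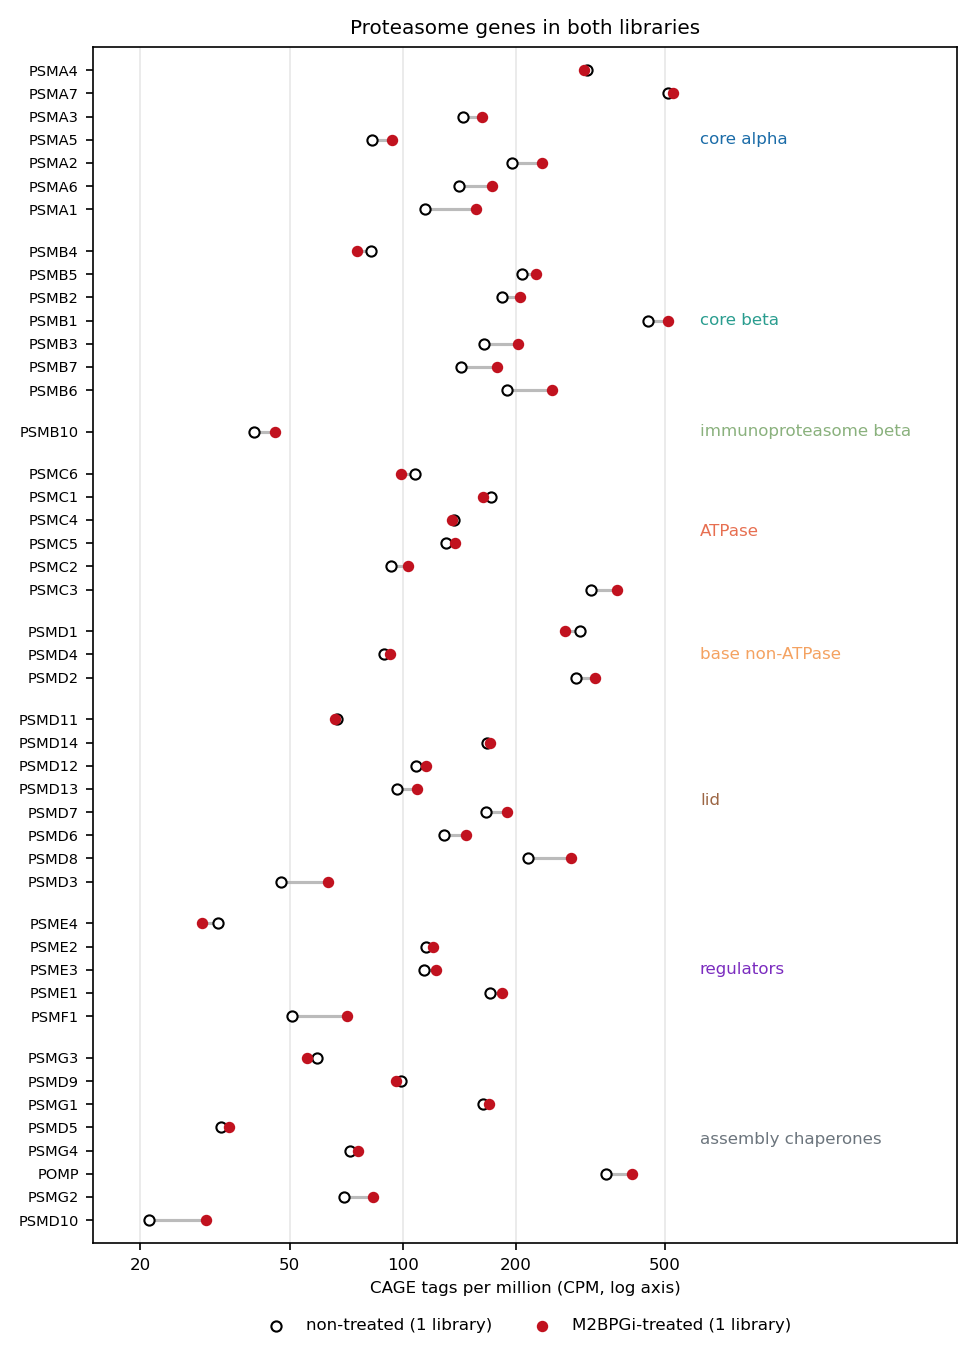
CPM (log axis) of the 45 expressed proteasome genes in non-treated cells (open circles) and M2BPGi-treated cells (red), 1 library each, grouped by role. Levels within 1 particle spread far more, from 82.5 CPM for PSMB4 to 511 CPM for PSMA7 among the constitutive core genes in non-treated cells, than the libraries differed for any member.

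Of the regulators, 4 of 5 had a log2 ratio above 0. PSMF1, which encodes a core-binding protein first described as an inhibitor, had 50.7 CPM without and 71.2 CPM with M2BPGi (0.48, interval 0.38 to 0.60), with PSMD10 the highest log2 ratios among the members. PSME1 and PSME2 encode the subunits of an interferon-inducible activator ring. PSME1 had 171 and 184 CPM (0.11), and PSME2 had 115 and 121 CPM (0.06, interval -0.01 to 0.14). PSME3, the nuclear relative of that activator, had 114 and 122 CPM (0.10). PSME4, a large single-chain activator, had 32.1 and 29.2 CPM (-0.13, interval -0.29 to 0.01). Its log2 ratio was among the lowest of the members, with those of PSMC6 and PSMD1, though its interval spanned equality.

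The assembly chaperones ranged from low to high levels. PSMD10, PSMD5 and PSMD9 help assemble the base, and PSMD10, also called gankyrin, is known for high expression in hepatocellular carcinoma. PSMD10 had the lowest mean level of the expressed members, with 21.2 CPM without and 29.96 CPM with M2BPGi (0.48, interval 0.34 to 0.67). PSMD5 had 32.8 and 34.4 CPM (0.07), and PSMD9 had 99.3 and 95.8 CPM (-0.05). Both of their intervals spanned equality. POMP, which guides the maturation of the beta rings, had 348 and 408 CPM (0.23, interval 0.19 to 0.27) and ranked behind PSMA7 and PSMB1 in mean level. PSMG1 and PSMG2 form a pair that assembles the alpha ring, as do PSMG3 and PSMG4. PSMG2 had 69.9 and 83.3 CPM (0.25, interval 0.16 to 0.35), and its partner PSMG1 had 164 and 170.3 CPM (0.05, interval -0.01 to 0.11). PSMG4 had 72.3 and 76.3 CPM (0.08), and PSMG3 had 59.1 and 55.7 CPM (-0.08). The intervals of PSMG1, PSMG3 and PSMG4 spanned equality, while that of PSMG2 did not.

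Subunits that occur in equal numbers in the core did not have equal tag levels. Among the 14 constitutive core genes, the highest level was 6.19 times the lowest in non-treated and 6.94 times the lowest in M2BPGi-treated cells, from PSMB4 to PSMA7 in both. Among the 17 genes of the regulatory particle this ratio was 6.7 and 5.89, from PSMD3 to PSMC3 in both. The order of the levels was nearly the same in the libraries, with a Spearman coefficient of 0.97 across the core genes and of 0.97 across the genes of the regulatory particle. These coefficients describe genes of 1 library pair, which are not independent replicates.

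**Figure D3:**
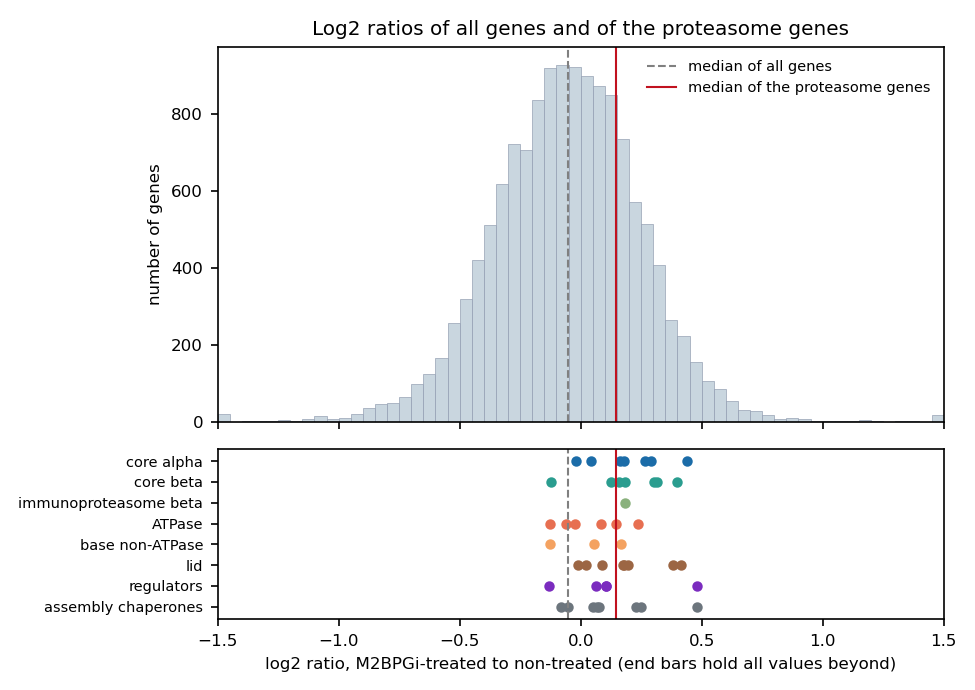
Number of genes by log2 ratio, treated to non-treated, in bins of 0.05 for the 13724 expressed genes (top), and the 45 proteasome genes by role (bottom, 1 point per gene). The proteasome genes have a median of 0.15 (red line) against -0.05 for all genes (dashed line) and lie within the bulk of the distribution.

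Some members share tags with other entries. PSMA1 was listed under the identifiers ENSG00000129084 and ENSG00000256206, and the second had 98.96 CPM without and 131.6 CPM with M2BPGi. Genes annotated on the same strand over the same locus had nearly the member's own values in several cases. DKFZP686D09174 had 195.8 and 236 CPM beside PSMA2, and RP11-87C12.2 had 97.4 and 94.6 CPM beside PSMD9. CTC-479C5.12 and PSMB10 were equal at 40.18 and 45.73 CPM, as were CTA-276O3.4 and PSMC2 at 93.22 and 103.25 CPM. Tags of these starts therefore seem to stand in the values of more than 1 gene, and the values of these members are uncertain as values of 1 gene. KIAA0391, whose annotation overlaps PSMA6, differed from it with 26.7 and 24.1 CPM.

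Near-identical copies elsewhere in the genome are another limit, since how tags that fit several places were counted is not given in the sources used here. Of 45 members searched, 9 had a second gene in GENCODE v29, away from their own locus, that aligned to the 5′-most 500 nt of a transcript for 100 nt or more at 95% identity or above. They were PSMA1, PSMA6, PSMC1, PSMC6, PSMD4, PSMD8, PSMD10, PSME2 and PSME3, and they include 3 of the 6 members with at least 25% higher values. The alignments began near the 5′ end for PSMA6 (base 5), PSMD10 (base 11) and PSMC6 (base 17). They began further inside for the others, as at base 396 for PSMA1 and base 330 for PSMD8. Tags mark the 5′ end, and whether tags reached the aligned parts was not tested. The members PSMB6, PSMD3 and PSMF1 had no such copy, and PSMB3 was not searched. The copy with the most tags was PSMC1P1, identical to PSMC1 over 424 nt from base 77 on, with 19.5 CPM without and 8.93 CPM with M2BPGi. Over the 35 expressed members searched and without such a copy, the median log2 ratio was 0.15.

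Shorter transcripts tended to have higher log2 ratios in these libraries, with a Spearman coefficient of -0.195 over expressed genes with a length. The trend was not even, with a median of 0.01 in the shortest length bin (331 nt) and of 0.07 in that around 796 nt. Most proteasome transcripts are shorter than the median of all genes. The median transcript of the 45 members was 1462 nt long, against 2245 nt for the 13393 genes with a length in GENCODE v29. Genes within the members' length quartiles, 964 to 2307 nt, had a median log2 ratio of -0.01, shorter genes 0.04 and longer genes -0.10. Genes in the same length range with a mean CPM between those of the least and the most abundant of the 45 members had a median of 0.05, and 56.8% of these 2208 genes lay above 0, against 77.8% of the members. Of these 2208 genes 11.1% were at least 25% higher and 10.3% at least 20% lower, and the interval lay above equality for 41.7% and below it for 29.4%, against 64.4% and 8.89% of the members. Their median level was 64.1 CPM, against 136.3 CPM for the members, and intervals narrow with more tags. The part of length and level in the members' values was not tested. Within the members, PSMF1 combined a long transcript with a log2 ratio among the highest, while PSME4, with the longest transcript at 7099 nt, had a log2 ratio among the lowest.

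**Figure D4:**
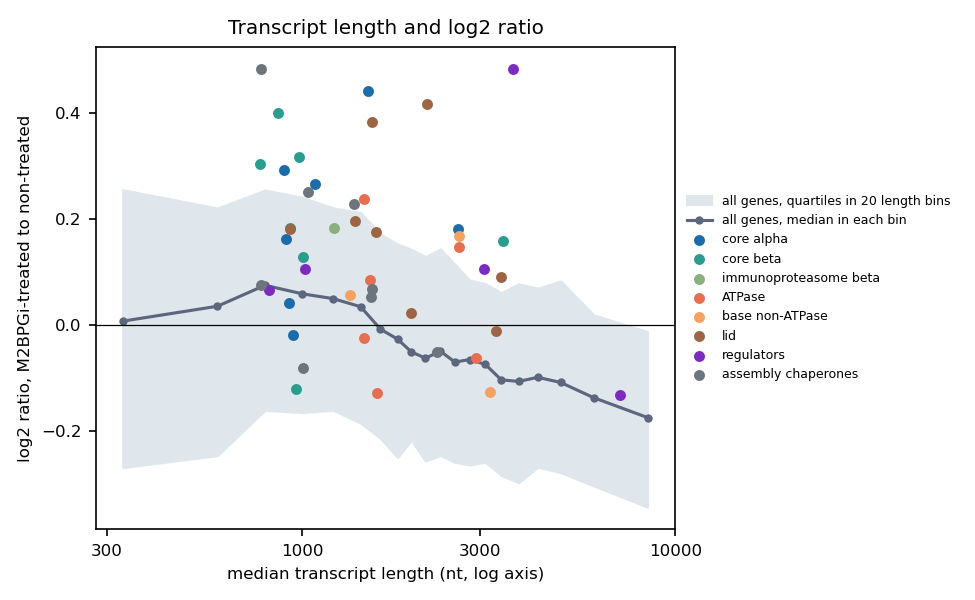
Log2 ratio, treated to non-treated, against the median transcript length in nt (log axis), with the median and quartiles of all genes in 20 length bins and the 45 proteasome genes as points coloured by role. Most members lie above the median of all genes of their length.

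The members are spread over the genome. In GENCODE v29 on GRCh38, 7 of the 45 members lie on chromosome 14 and 7 on chromosome 17, with median log2 ratios of 0.11 and 0.10. PSME1 and PSME2 are neighbours on chromosome 14 with 4394 bases between them, and had log2 ratios of 0.11 and 0.06. The value of PSME1 is itself the median of that chromosome. The genes with at least 25% higher values lie on 5 chromosomes. PSMF1 lies at chr20:1113263-1189415, PSMD10 at chrX:108084207-108091618, PSMA1 at chr11:14504874-14643635, PSMD3 at chr17:39980797-39997960, PSMB6 at chr17:4796144-4798503 and PSMD8 at chr19:38374536-38383824. This build may differ from the one used for mapping.

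Since many members differed in the same direction, their promoters were searched for the core of the antioxidant response element, which NFE2L1 binds with small MAF proteins. The RefSeq windows on GRCh38.p14 hold 250 bases before and 50 after an annotated start, and 40 of 46 members had at least 1. PSMA7, PSMB1, PSMB6, PSMB7, PSMD4 and PSMG3 had no entry. The letters TGACNNNGC, on either strand, were found in 14 of 39 expressed members with a window (35.9%), in 13.3% of all 35116 windows and for 19.6% of the 8799 expressed genes with a window. Followed by A, they were found in 8 of 39 members (20.5%), in 3.2% of all windows and for 4.0% of those genes. The matches in these 8 members are given here because they carry the longer form, on the strand that reads TGAC first, with the 9 letters in capitals and the positions on GRCh38.p14 after the gene name. The matches of PSMD1 and PSMD3 lie after the annotated start and the others before it.
PSMB3, chr17:38752627-38752655, plus strand: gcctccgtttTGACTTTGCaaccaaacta
PSMD3, chr17:39980830-39980856, minus strand: ccgcacgaTGACGGAGCagctgcaaac
PSMA4, chr15:78540650-78540678, plus strand: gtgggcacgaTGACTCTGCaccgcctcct
PSMC5, chr17:63827654-63827682, minus strand: agggcggcgcTGACACAGCagatccggtc
PSMD12, chr17:67366724-67366752, minus strand: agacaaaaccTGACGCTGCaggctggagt
PSMD9, chr12:121888631-121888659, minus strand: gcgcctgtggTGACCCGGCaggagtagcg
PSMD1, chr2:231056896-231056916, plus strand: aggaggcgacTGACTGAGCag
PSME4, chr2:53971009-53971037, plus strand: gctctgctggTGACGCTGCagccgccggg

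The 14 members with TGACNNNGC had a median log2 ratio of 0.07 and the 25 without it 0.17. For the form followed by A the medians were 0.03 in 8 members and 0.16 in 31. The 8 sequences include those of PSMB3 and PSMD3, with log2 ratios of 0.30 and 0.42, and those of PSMD1 and PSME4, with -0.13 for both. The windows of PSMA1, PSMF1, PSMD8 and PSMD10, which were at least 25% higher, do not hold these letters. A match describes letters in a window and shows no binding.

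Other promoter letters were searched on both strands in the same way. The box CCAAT was found in 18 of 39 members (46.2%), 34.6% of all windows and for 43.7% of the expressed genes with a window. The GC box GGGCGG was found in 26 members (66.7%) and 45.0% of all windows, but for 78.4% of the expressed genes with a window. The letters CCGGAAG, a core bound by ETS factors, were found in 15 members (38.5%), 10.3% of all windows and for 23.8% of the expressed genes with a window. TATAAA was found in 4 members (10.3%), 11.5% of all windows and for 7.8% of the expressed genes with a window. Of the 16 matches of TGACNNNGC in member windows, 0 overlapped another of these motifs. The 250 bases before the start are shown for PSMB3 and PSMD3, which were higher in M2BPGi-treated cells and hold TGACNNNGC there, and for PSMD1, which was lower and holds GC boxes. PSMB3 holds a GC box as well, and PSMD1 holds TGACNNNGC after its start, outside the bases shown. These windows are examples chosen with the values in view and show no link of letters to direction. Over the members, the median log2 ratio was lower with TGACNNNGC (0.07) than without it (0.17). They run 5′ to 3′ on the plus strand, with capitals for matches, on either strand, of the antioxidant response element core, the CCAAT box, the GC box and the ETS core.
PSMB3, chr17:38752491-38752740: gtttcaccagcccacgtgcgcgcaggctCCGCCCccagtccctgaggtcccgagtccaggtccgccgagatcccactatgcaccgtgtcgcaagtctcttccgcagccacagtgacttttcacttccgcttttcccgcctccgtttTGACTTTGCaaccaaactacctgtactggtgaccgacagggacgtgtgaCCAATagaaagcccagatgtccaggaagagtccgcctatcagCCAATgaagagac
PSMD3, chr17:39980557-39980806: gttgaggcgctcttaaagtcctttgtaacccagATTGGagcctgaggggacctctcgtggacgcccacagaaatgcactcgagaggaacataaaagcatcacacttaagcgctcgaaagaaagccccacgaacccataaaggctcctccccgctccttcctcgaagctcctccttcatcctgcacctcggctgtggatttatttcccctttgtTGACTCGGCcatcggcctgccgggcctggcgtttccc
PSMD1, chr2:231056617-231056866: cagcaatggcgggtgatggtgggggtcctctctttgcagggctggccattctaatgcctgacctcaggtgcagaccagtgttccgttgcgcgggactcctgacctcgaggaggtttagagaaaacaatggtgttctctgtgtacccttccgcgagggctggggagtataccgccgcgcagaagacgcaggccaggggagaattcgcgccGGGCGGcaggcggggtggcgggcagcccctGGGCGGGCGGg

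Genes that work with the proteasome were listed by role. Of the subunits outside the naming rule, SHFM1, the small lid subunit also called SEM1, had 275 and 330 CPM (0.26), and ADRM1, a ubiquitin receptor, had 173 and 163 CPM (-0.09). The interval of ADRM1, -0.15 to -0.03, became -0.10 to 0.02 with the other scaling and spanned equality. Of the proteins that bind the proteasome or aid it, 11 of 11 had log2 ratios above 0, against 42.9% of all expressed genes, with a median of 0.08. The interval lay above equality for 4 of them (36.4%, against 22.8% of all genes). It did so for 41.7% of the 2208 genes above, which were chosen by the members' length and level. Some genes of this list are longer than that range. FBXO7, a partner of PSMF1, had the highest log2 ratio in this list with 37.9 and 45.7 CPM (0.26), and the ligase UBE3C the lowest with 64.3 and 65.0 CPM (0.02).

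The ubiquitin genes RPS27A and UBB were both higher and had the highest levels of these lists. RPS27A, which encodes ubiquitin fused to a ribosomal protein, had 897 and 1252 CPM (0.48, interval 0.46 to 0.51). UBB, which encodes polyubiquitin, was closer to equality with 1183 and 1349 CPM (0.19, interval 0.17 to 0.21). The ubiquitin-activating enzymes were lower in 2 of 2 cases, UBA1 with 61.7 and 56.7 CPM (-0.12, interval -0.23 to -0.01, and -0.18 to 0.04 with the other scaling) and UBA6 with 21.8 and 19.5 CPM (-0.16, interval -0.34 to 0.02). Of the shuttle factors that carry ubiquitinated proteins, 5 of 7 lay above 0. RAD23B was the highest with 192 and 228 CPM (0.25), and UBQLN4, at a mean just above 10 CPM, was the lowest with 11.3 and 9.73 CPM (-0.19, interval -0.47 to 0.04).

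The list named for the NFE2L1 pathway also held NFE2L2, NFE2L3, KEAP1 and BACH1, and it was split in direction. Of these additions, KEAP1, NFE2L2 and NFE2L3 lay above 0, so the split is that of the whole list and not of NFE2L1 and its extraction alone. Of 15 genes, 7 lay above 0, 7 below and 1, BACH1, at 0, above which it turned with the other scaling. NFE2L1 itself had 409 CPM without and 334 CPM with M2BPGi (-0.29, interval -0.34 to -0.25). Of the 15 genes 46.7% lay below 0, against 57.0% of all expressed genes. The interval lay below equality for 40.0%, against 31.5% of all expressed genes. The NFE2L1 protein is held at the endoplasmic reticulum and extracted from it by other proteins. Examples of the list, chosen with their values in view, follow. NGLY1 had a log2 ratio of 0.13 and DDI2 of -0.06. SEL1L had 167 and 123 CPM (-0.44), SYVN1 had 117 and 91.0 CPM (-0.36), and VCP had 328 and 271 CPM (-0.27). Of the cofactors of VCP, NPLOC4 had 231 and 198 CPM (-0.22), while UFD1L had 93.8 and 96.8 CPM (0.05, interval -0.04 to 0.13). MAFG, a small MAF partner, had 36.2 and 26.2 CPM (-0.45) and was the lowest of the list, while the small MAF genes MAFK, with 0.10 (interval 0.02 to 0.18), and MAFF, with 0.02 (interval -0.17 to 0.21), were not lower. KEAP1, the repressor of NFE2L2, was the highest with 21.1 and 30 CPM (0.49), while NFE2L2 had 199 and 206 CPM (0.04, interval -0.01 to 0.10).

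The partners of the immunoproteasome in antigen processing were lower in 7 of 7 genes, as were 57.0% of all expressed genes. Their median was -0.45, and 5 were at least 20% lower, as were 18.4% of all expressed genes. IRF1, a transcription factor of the interferon response, had 17.3 CPM without and 8.97 CPM with M2BPGi (-0.87, interval -1.19 to -0.71). The peptide transporter genes TAP2, with 36.9 and 20.9 CPM (-0.79), and TAP1, with 21.8 and 16.4 CPM (-0.39), were also lower. B2M was closest to equality with 586 and 513 CPM (-0.19, interval -0.23 to -0.16). The interferon-inducible members PSMB10, PSME1 and PSME2, with 0.18, 0.11 and 0.06, did not share this direction.

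**Figure D5:**
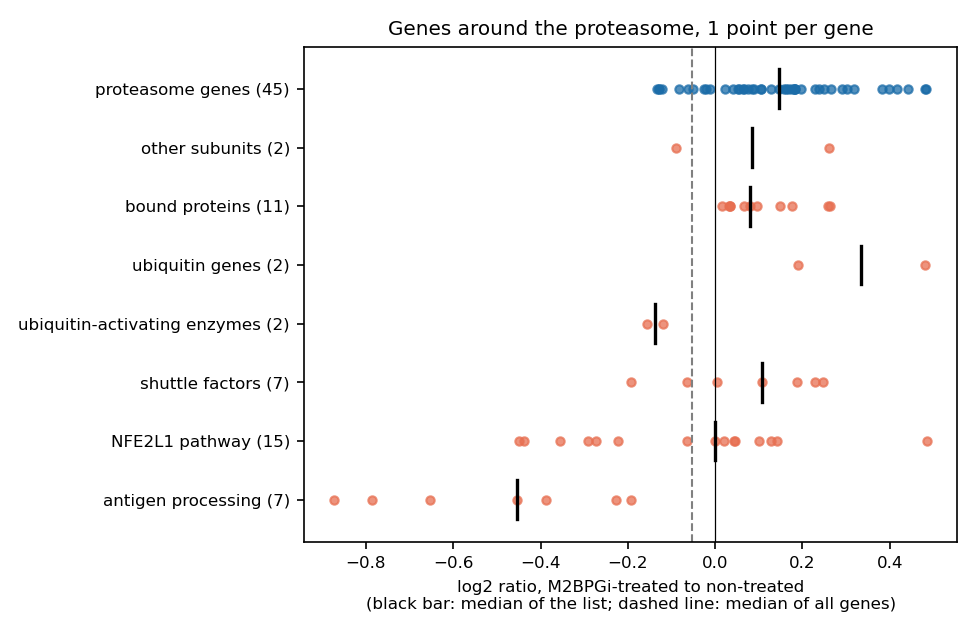
Log2 ratio, treated to non-treated, for the 45 proteasome genes (blue) and for the lists of genes that work with the proteasome (orange), 1 point per expressed gene and a black bar at each median. The ubiquitin genes lie above 0 in 2 of 2 cases, as do 42.9% of all expressed genes. The antigen processing genes lie below 0 in 7 of 7, as do 57.0% of all expressed genes. DDI2 appears among the shuttle factors and the NFE2L1 pathway.

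Markers of the cell line were checked beside these values. All 12 hepatoma markers were expressed, and they summed to 2713 CPM without and 2053 CPM with M2BPGi. FGB was the most abundant with 950.0 and 623 CPM (-0.61), AFP had 695 and 566 CPM (-0.30), and ALB was low with 8.82 and 7.04 CPM (-0.29). With the deposited values the interval lay below equality for 7 of the 12 markers (58.3%, against 31.5% of all expressed genes) and above it for 3. With the scaling by the trimmed mean of M-values the intervals of ALB, -0.57 to 0.02, and TTR, -0.98 to 0.0004, spanned equality. Of the 12 markers 7 were lower in M2BPGi-treated cells (58.3%, against 57.0% of all expressed genes) and 5 higher. Among the higher ones, FOXA2 had 12.8 and 18.4 CPM (0.49, interval 0.31 to 0.73), HNF4A had 39.1 and 43.8 CPM (0.16, interval 0.04 to 0.29), and APOA2 had 241.4 and 260.6 CPM (0.11, interval 0.06 to 0.16). Of 8 markers of leukocytes, endothelium, stellate cells and fibroblasts, 3 were listed, the others were not analysed here, and the 3 summed to 5.2 and 4.2 CPM. COL3A1 was the most abundant of them with 4.53 and 3.42 CPM, COL1A1 had 0.67 and 0.76 CPM, and PTPRC, the defining leukocyte marker, was at 0 in both libraries. The part of the hepatoma markers in the members' values was not tested.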

How the data were processed

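Per the labels, capped 5′ ends of total RNA from PLC/PRF/5 cells were sequenced as CAGE tags. The authors discarded ribosomal tags, mapped the rest (BWA) and grouped tag starts (CAGEr). They deposited CPM per gene with 2 decimals. The submitters' processing notes name hg19, BWA and HISAT2, while the methods name a mouse genome. The gene identifiers are human. The assignment of tags to genes is not given in the sources used here.

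Library totals and tag numbers were derived from the steps between CPM values. Within the rounding of 0.005 CPM, 100% of nonzero values fell on these steps. By a stricter measure, 87.6% of the low non-treated values and 94.1% of the low M2BPGi-treated values lay within 0.1 of a whole tag. Rounding alone reaches 0.12 of a step in the non-treated and 0.124 in the M2BPGi-treated library. This measure therefore cannot decide whether the values are whole tags. The planned binomial test of the tags needed 95% by it and was left out. The tag numbers serve for intervals and depths, and intervals apart from equality are no test of the treatment.

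Log2 ratios used a pseudocount of 1 CPM and genes whose mean CPM reached 1. The threshold was 25% higher, or equally far lower (20%). Scaling by the trimmed mean of M-values trimmed 30% of the ratios and 5% of the levels at each end. The members and lists were chosen with earlier results of these data known. All members were named, and of the other lists the highest and lowest whose mean CPM reached 10. Further examples were chosen with their values in view. Some genes of these lists are not reported here. Python 3.11.15, numpy 2.4.6, pandas 2.3.3, scipy 1.17.1, matplotlib 3.10.9 and BLAST+ 2.17.0 were used, with GENCODE v29 and RefSeq promoters. The intervals and read-back were tested on simulated data.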

Additional observations from a re-analysis of the deposited data

How the results depend on the processing

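No paired analysis was possible because the groups held 1 library each, and neither could be left out. The median log2 ratio of the members stayed above 0 in each alternative run: pseudocounts of 0.1 and 5 CPM, a mean CPM of at least 10, no filter, summed rows of a symbol, members with no listed pseudogene, and 2 other scalings. It was 0.20 with the trimmed mean of M-values and 0.20 with a rescaling to a median of 0, instead of 0.15, which follows from the scale factors themselves. With that rescaling, 10 members were at least 25% higher instead of 6, and 12.6% of all genes instead of 9.04%. With a fold threshold of 1.5 there were 0 higher and with a threshold of 2 there were 0 higher. No member was lower by these folds in any of these settings.

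The following were chosen after seeing the data. Among the 35 members searched and without a near-identical copy, 3 were at least 25% higher, and 2 had an interval below equality instead of 4, with fewer genes counted. An interval below equality was left for 1 member with the trimmed mean of M-values and for 1 member with the rescaling, PSMD1 in both, and was lost for PSMB4, PSMC1 and PSMC6.

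Of 412 values of single genes under other settings, 371 moved by no more than the distance from the middle to the end of their counting interval and 41 by more, these all under the scalings, and 0 called values changed sign. The rescaling also brought PSMD9 above 0. The planned test of tags and its alternatives were not run. Depth limits the members little, with at least 509 tags in non-treated and 727 tags in M2BPGi-treated cells for each of the 45, but says nothing of the spread between cultures.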

Other observations

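Entries named like the members but outside the rule had these values. Of 13 listed pseudogenes with the symbol of a member, 8 were at 0 in both libraries. PSMC1P1 had 469 tags in non-treated and 222 tags in M2BPGi-treated cells, a log2 ratio of -1.05 (interval -1.36 to -0.89). PSMB3P2 had 2.33 and 3.06 CPM, PSMA2P3 had 2.62 and 2.37 CPM, PSMA6P1 had 33 and 31 tags, and PSMD4P1 had 0.17 and 0.20 CPM. PSMC3IP, a recombination factor named for binding PSMC3, had 17.6 and 14.3 CPM (-0.28, interval -0.51 to -0.09). The antisense gene PSMG3-AS1 had 9.90 and 9.45 CPM, beside 59.1 and 55.7 CPM for PSMG3.

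Chosen with the values in view, genes of other large complexes were described in the same way. The 9 genes with symbols of the CCT chaperonin, which folds actin and tubulin, had a median log2 ratio of 0.11, with 7 of 9 above 0 and 2 at least 25% higher. Among them 1 was at least 20% lower with a log2 ratio of -0.82, and the summed level was 1704 and 1946 CPM. Their median level was 197 CPM, but the lowest mean was 1.84 CPM, near the threshold of 1 CPM. The 76 genes of mitochondrial ribosomal proteins had a median of 0.21, with 70 of 76 above 0 and 21 at least 25% higher. The proteasome genes had a median of 0.15, with 35 of 45 above 0 and 6 at least 25% higher. Of all expressed genes 42.9% lay above 0 and 9.04% were at least 25% higher.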
